A study of Mus musculus with 1753 samples.

Results

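The small leucine-rich proteoglycans are secreted matrix proteins, and 10 of their genes were followed here: Dcn, Bgn, Fmod, Lum, Kera, Ogn, Aspn, Omd, Prelp and Chad. They were taken by gene symbol from a table of 46517 genes (the rule uses no measured value, although the family was picked with earlier results of these data known), and all 10 were found and had counts. The data were read counts per gene from 1753 single cells of mouse skeletal muscle, sequenced with Smart-seq2, a plate method that reads whole transcripts and has no molecular identifiers. The cells were fibroblasts and mural cells (the pericytes and smooth muscle cells around vessels) of male mice aged 10 to 20 weeks, sorted into 8 plates. Each cell carried the number of 1 of 10 clusters and 1 of 5 strain labels.

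C57BL6 is an inbred strain whose cells were sorted with antibodies. Acta2GFP, Cspg4dsRED and PdgfrbGFP name lines in which the control sequence of the named gene drives a fluorescent reporter, and PdgfraGFP - PdgfrbGFP pool (the pool, below) names cells of both GFP reporter lines together. The strains were sorted with different gates and were unevenly spread over the clusters, and no treatment was applied. In the study's strain names the Pdgfra reporter is an altered allele of Pdgfra itself, while the other reporters are added transgenes. The study's text calls clusters 2 and 9 perimysial (from the sheath around bundles of fibres), cluster 4 paramysial (from the fringe of that sheath) and clusters 1, 3, 5, 6 and 8 endomysial (from between single fibres). Cluster 10 has no class name and expresses Ngfr and Cspg4, and the study places its cells at the edge of nerve fibres. Cluster 7 holds the mural cells. The labels name no animal, so the strain label served as the replicate, and every n below is a number of strains with 3 or more cells.

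In these proteins a curved stack of leucine-rich repeats binds collagen fibrils, and most carry chains of chondroitin, dermatan or keratan sulfate. Class I holds decorin (Dcn), biglycan (Bgn) and asporin (Aspn, which has a run of aspartate in place of a sugar chain). Class II holds fibromodulin (Fmod), lumican (Lum), keratocan (Kera), PRELP and osteomodulin (Omd). Osteoglycin (Ogn) belongs to class III, and chondroadherin (Chad), first known from cartilage, to class IV. Fibromodulin and lumican bind the same region of type I collagen, and fibromodulin is prominent in tendon, keratocan in the cornea.

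Several of the genes lie in rows on the genome (GRCm38). Dcn (chromosome 10, 97479609 to 97518143), Lum (chromosome 10, 97565128 to 97572703) and Kera (chromosome 10, 97606879 to 97613692) follow each other, with 47.0 kb and 34.2 kb between them. Aspn (chromosome 13, 49544443 to 49567565), Omd (chromosome 13, 49582462 to 49592822) and Ogn (chromosome 13, 49608046 to 49624501) are spaced by 14.9 and 15.2 kb. Prelp (chromosome 1, 133910304 to 133921414) and Fmod (chromosome 1, 134037254 to 134048277) are 116 kb apart, while Bgn (chromosome X, 73483602 to 73495933) and Chad (chromosome 11, 94565047 to 94569127) stand alone. Prelp is on the minus strand and the other 9 on the plus strand. In Prelp, 9.68% of the exon bases are shared with the predicted gene Gm15851, and in Aspn 0.297% with Cenpp. The use of strand in the counting is not given in the sources used here, so reads in these stretches may have been lost or shared.

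The promoters of Fmod, Kera, Chad and Prelp are shown because all 4 were higher in perimysial than in endomysial cells with no overlap between strains, a choice made with these values known. Each window runs from 250 bases before the RefSeq start to 50 bases after it, 5′ to 3′ on the gene's strand (RefSeq, GRCm38.p6). Capitals mark an E-box, CANNTG, the kind of site that basic helix-loop-helix factors such as scleraxis bind, or a TATAAA box, each searched on both strands. The windows lie at chr1:134037004-134037303 (Fmod, plus strand), chr10:97606955-97607254 (Kera, plus), chr11:94564797-94565096 (Chad, plus) and chr1:133921352-133921651 (Prelp, minus).
Fmod: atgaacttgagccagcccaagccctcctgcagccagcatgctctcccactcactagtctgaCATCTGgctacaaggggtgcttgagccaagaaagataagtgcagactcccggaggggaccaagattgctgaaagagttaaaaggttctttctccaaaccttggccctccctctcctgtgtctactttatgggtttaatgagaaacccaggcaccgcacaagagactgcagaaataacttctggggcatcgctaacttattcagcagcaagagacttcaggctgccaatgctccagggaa
Kera: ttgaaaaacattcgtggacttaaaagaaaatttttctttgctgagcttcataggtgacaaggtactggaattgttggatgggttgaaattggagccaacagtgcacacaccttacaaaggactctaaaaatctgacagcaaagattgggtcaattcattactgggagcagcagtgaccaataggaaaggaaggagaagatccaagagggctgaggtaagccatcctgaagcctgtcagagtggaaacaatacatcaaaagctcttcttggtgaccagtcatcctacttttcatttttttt
Chad: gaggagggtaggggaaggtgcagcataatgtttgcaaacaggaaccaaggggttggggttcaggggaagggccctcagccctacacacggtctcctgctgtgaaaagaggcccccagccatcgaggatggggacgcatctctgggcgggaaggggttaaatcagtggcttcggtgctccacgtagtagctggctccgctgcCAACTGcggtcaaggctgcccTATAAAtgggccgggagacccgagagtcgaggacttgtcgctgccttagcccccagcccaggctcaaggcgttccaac
Prelp: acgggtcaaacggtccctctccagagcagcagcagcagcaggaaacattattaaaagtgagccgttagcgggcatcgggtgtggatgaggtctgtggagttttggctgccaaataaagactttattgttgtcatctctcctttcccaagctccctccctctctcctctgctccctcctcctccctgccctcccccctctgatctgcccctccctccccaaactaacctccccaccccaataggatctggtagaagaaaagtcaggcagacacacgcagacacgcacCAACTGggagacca
The windows of Fmod, Chad and Prelp held 1 E-box each and that of Kera 0. Chad alone of the 4 held a TATAAA box. Of all 27025 RefSeq windows of this length, 72.1% held an E-box and 14.2% a TATAAA box. The Kera window starts from a RefSeq start that lies 326 bases from the outermost start in the gene annotation. Dcn and Lum were not matched in the promoter table.

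Cells held between 46097 and 1055869 counts, and the median cell held 258251. By strain the median was lowest in Cspg4dsRED and highest in the pool, and by cluster it was lowest in mural cells and highest in paramysial cells. Cluster labels were checked against markers. The summed mean of Mcam, Myh11, Notch3 and Rgs5 was 3509.6 scaled counts in cluster 7 and at most 32.0 in the others. A scaled count is a count per 500000 counts of the cell, spike-ins left out. Tnmd, Scx, Col11a1 and Thbs1 summed to 2532 and 2135 in clusters 2 and 9, to 393 and 323 in clusters 10 and 4, and to at most 139 in the rest. The cluster 10 sum was nearly all Thbs1, at 389, with Tnmd at 2.02, Col11a1 at 2.46 and Scx at 0.110. Postn, C1qtnf3 and Cthrc1 summed to 2416 in cluster 4 but also to 1644 in cluster 9. In cluster 9 this was mostly Postn, at 1484, while C1qtnf3 was at 62.1 and Cthrc1 at 97.6. Cluster 4 had 1520 for Postn, 689 for C1qtnf3 and 207 for Cthrc1. Endothelial, immune, Schwann and adipocyte markers each summed to at most 26.9 in any cluster. The muscle fibre genes Acta1, Ckm and Myh4, with Pax7, summed to between 14.7 and 202. The authors made the clusters from these same counts, so the tests between clusters describe them and are not independent evidence.

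Both the makeup of the family and its share of all counts differed between clusters. Fmod, Chad, Kera and Prelp were high in perimysial cells. Lum was high in endomysial, paramysial and cluster 10 cells and low in perimysial cells. Aspn had its highest mean in paramysial cells, followed by perimysial cluster 9, and Dcn was high in every fibroblast cluster. Together the 10 genes took 4.90 ± 1.33% of all counts in cluster 2 (SD, n = 5 strains) and 2.81 ± 0.756% in cluster 9 (n = 4). In the other fibroblast clusters the share was between 1.12% (cluster 1) and 2.17% (cluster 4), and in mural cells it was 0.300 ± 0.0892% (n = 5).

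**Figure D1:**
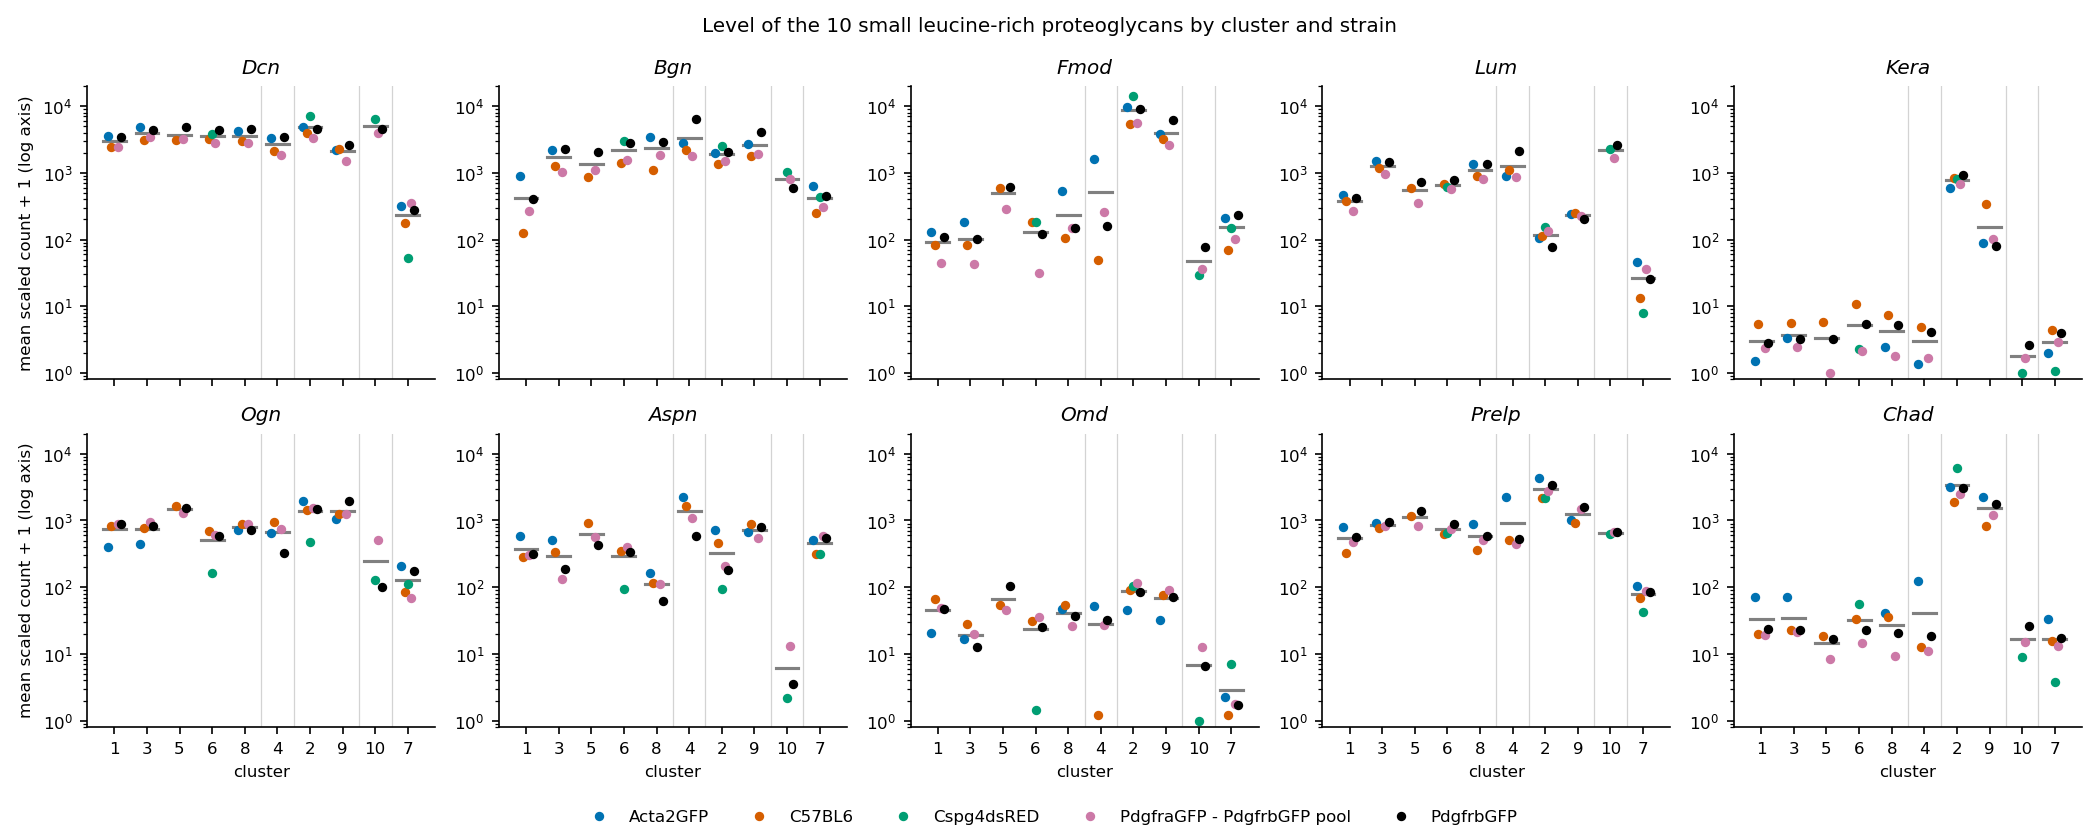
Mean scaled counts plus 1 (log axis) of each member in every cluster, 1 point per strain with 3 or more cells and a grey bar at the mean over strains. Kera and Chad stood far higher in clusters 2 and 9 than elsewhere, Fmod likewise, and Lum was lowest in mural cells and then in clusters 2 and 9.

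To compare the genes with each other, levels were divided by the length of the merged exons and given as a share of the 10-gene sum. In cluster 2, Fmod made up 33.5 ± 4.32% and Chad 25.1 ± 5.27% of the sum, ahead of Prelp at 11.1 ± 3.33% and Dcn at 10.7 ± 1.14% (SD, n = 5). Cluster 9 had a similar makeup, with Fmod at 27.4 ± 3.66% and Chad at 20.9 ± 6.84%. In endomysial cluster 3, Dcn with 30.9 ± 2.10% and Lum with 23.6 ± 1.66% led, and Fmod held 1.34 ± 0.603% and Chad 0.883 ± 0.523% (n = 4).

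The other classes had makeups of their own. Lum with 40.6 ± 6.61% and Dcn with 38.8 ± 5.47% made up most of the sum in cluster 10 (n = 3), where Aspn was at 0.112 ± 0.135%. In paramysial cells Aspn at 21.3 ± 9.20%, Bgn at 19.1 ± 9.93%, Lum at 18.7 ± 7.59% and Dcn at 16.4 ± 1.87% had means that lay closer together than the SD of Aspn (n = 4). Aspn was the largest share in mural cells, at 44.3 ± 6.34% of a small sum (n = 5).

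These shares depend on the length used. Merged exons came to 5838 bases in Dcn and 6099 in Bgn, against coding lengths of 1062 and 1107. With coding lengths in place of exon lengths, Dcn rose to 43.7% in cluster 3, where Lum fell to 14.7%, below Bgn at 17.6%. In cluster 2 Fmod was at 33.6%, Dcn at 20.0% and Chad at 13.5%. Chad fell to 10.8% in cluster 9, below Fmod, Bgn, Dcn and Ogn. Cluster 10 turned to Dcn at 54.7% ahead of Lum at 25.4%. Paramysial cells turned to Bgn at 28.7% and Dcn at 25.2%, ahead of Aspn at 13% and Lum at 12.4%. Aspn stayed first in mural cells but at 29.6%, close to Bgn at 27.2%.

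**Figure D2:**
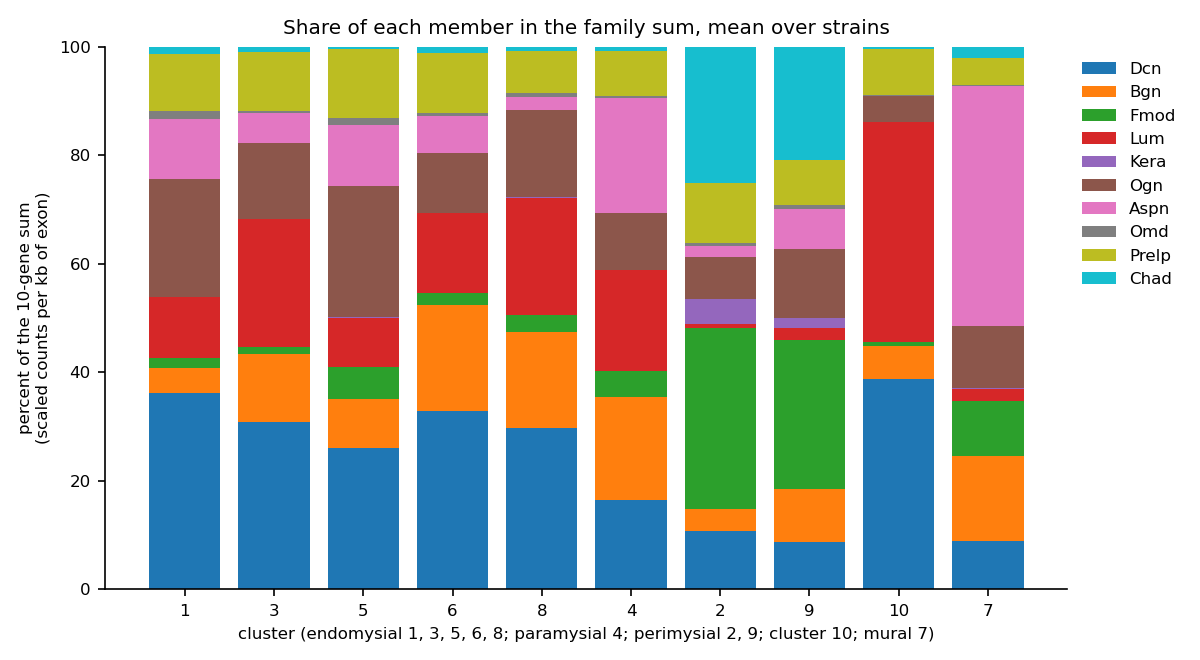
Stacked bars of the share of each member in the 10-gene sum of scaled counts per kb of exon, by cluster, as means over strains. Fmod and Chad are the largest parts of the bars of clusters 2 and 9, Dcn and Lum most of the bar of cluster 10, and Aspn the largest part of the mural bar.

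Perimysial and endomysial cells were compared first, as sums of counts per class and strain (edgeR quasi-likelihood test with the strain as a block, Benjamini-Hochberg adjustment over all genes, call at an adjusted p under 0.05). All 10 members passed the filter on low counts. Of these, 5 were higher in perimysial cells, beside a background of 2.32% of all genes called higher, and 1 was lower, beside 3.26%. The median log2 fold change was 1.41 against -0.19 over all genes tested. Errors of log2 fold changes are standard errors.

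Fmod, the class II member that binds type I collagen, had 5881, 5148, 13051, 4894 and 8672 scaled counts in the perimysial cells of Acta2GFP, C57BL6, Cspg4dsRED, the pool and PdgfrbGFP. In endomysial cells of the same strains it had 250.3, 141, 202, 52.9 and 136. The groups did not overlap, and the difference was 52.7-fold (log2 fold change 5.72 ± 0.31, adjusted p = 0.000177). Lum, its relative in the same class, ran the other way, at 192, 124, 139, 158 and 94.8 in perimysial and 1362, 819, 646, 746 and 1142 in endomysial cells in the same order of strains. Every strain was lower in perimysial cells, without overlap (log2 fold change -2.71 ± 0.21, adjusted p = 0.000585).

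Kera, the keratan sulfate carrier of the cornea, was low in endomysial cells, with 1.95, 6.28, 1.22, 1.29 and 3.13 scaled counts. The perimysial values were 263, 802, 721, 539.9 and 808, with the lowest in Acta2GFP (log2 fold change 8.21 ± 0.49, adjusted p = 0.000233). Chad, which binds collagen and integrins, had 2563, 1829.7, 5653, 2188 and 2852 in perimysial and 63.5, 27.5, 52.9, 17.5 and 21.1 in endomysial cells, again with no overlap (log2 fold change 6.63 ± 0.32, adjusted p = 0.00011). Cspg4dsRED was the highest perimysial strain for both Chad and Fmod, from 18 cells.

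Prelp, a basic protein that links matrix to basement membranes, differed less. It had 2145, 2089, 1923, 2457 and 3093 scaled counts in perimysial and 886, 577, 659.7, 717 and 786 in endomysial cells (log2 fold change 1.70 ± 0.16, adjusted p = 0.00111). Ogn was higher in perimysial cells in 5 of 5 strains although the groups overlapped, since both Cspg4dsRED values were low (1366, 1438, 437, 1457 and 1580.0 against 507, 846, 172, 878 and 787, log2 fold change 1.12 ± 0.14, adjusted p = 0.00394). Without the strain block Ogn was not called, with an adjusted p of 0.183 from edgeR. By cluster, Ogn was as high in endomysial cluster 5 (1496 scaled counts) as in perimysial clusters 9 (1389) and 2 (1382). Prelp was 2954 in cluster 2 and 1247 in cluster 9, against 1139 in cluster 5. In the 3 strains shared by clusters 9 and 5, the Prelp difference was 183 ± 447 (SD). Dcn (log2 fold change 0.16 ± 0.18, adjusted p = 0.76), Bgn (log2 fold change 0.28 ± 0.11, adjusted p = 0.282), Aspn (log2 fold change 0.40 ± 0.28, adjusted p = 0.598) and Omd (log2 fold change 1.94 ± 0.79, adjusted p = 0.283) were not called. Without Cspg4dsRED, Aspn and Omd were called as well, at log2 fold changes of 0.76 and 1.31.

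**Figure D3:**
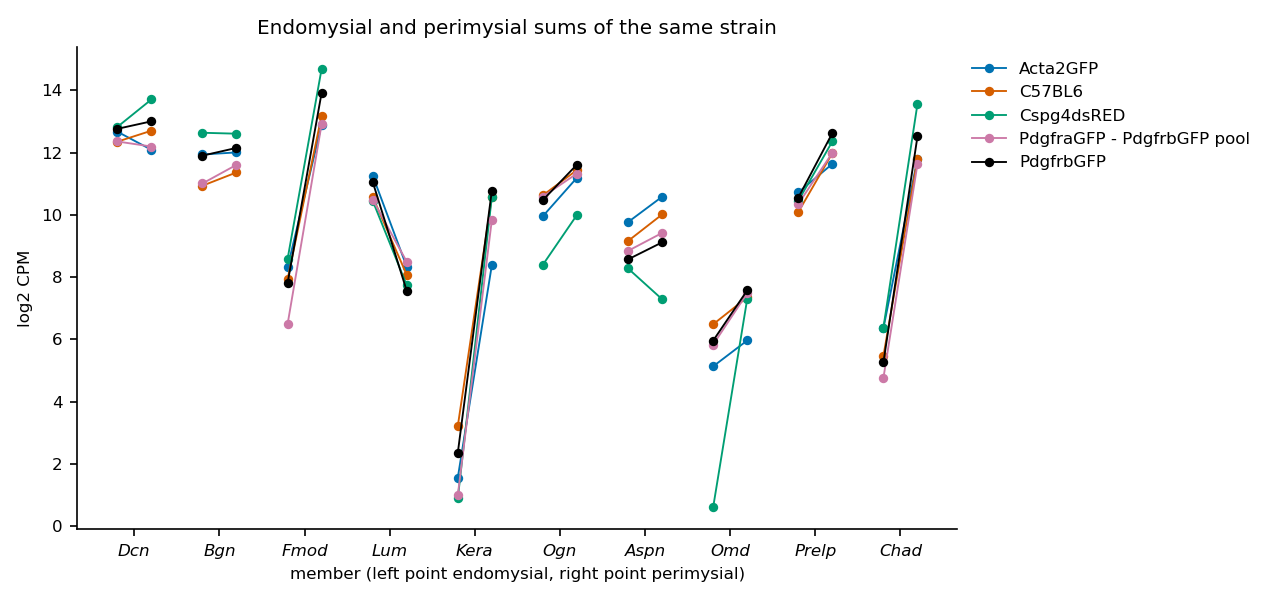
Log2 CPM (counts scaled to the library size) of each member in the endomysial (left) and perimysial (right) sums, with a line for each of the 5 strains. The lines of Fmod, Kera, Chad, Prelp, Ogn and Omd rise in all 5 strains and those of Lum fall, while Dcn, Bgn and Aspn are mixed in direction.

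Between clusters, Fmod and Lum showed the exchange most plainly as a ratio of scaled counts. Fmod over Lum was 78.5 ± 33.5 in cluster 2 (SD, n = 5, lowest strain 41.7) and 17.7 ± 8.47 in cluster 9 (n = 4). In the endomysial clusters the mean ratio lay between 0.0757 (cluster 3) and 0.883 (cluster 5), and in cluster 10 it was 0.0211 ± 0.00836 (n = 3). Over the 35 fibroblast libraries of cluster and strain, Pearson's r of log2 CPM was -0.79 for Fmod and Lum, -0.81 for Lum and Chad, 0.92 for Kera and Chad and 0.91 for Fmod and Chad. With the 5 mural libraries included, Fmod and Lum gave -0.35. These libraries share strains and plates, and the values are a description.

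**Figure D4:**
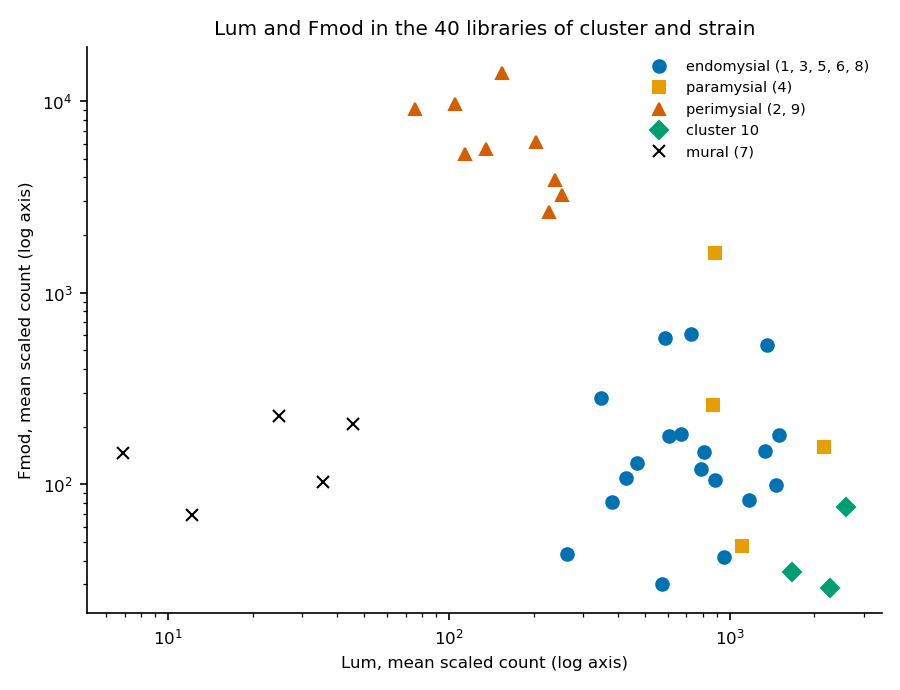
Mean scaled counts of Fmod against those of Lum (both log axes) in the 40 libraries of cluster and strain, with a symbol for each class. Perimysial libraries sit at high Fmod and low Lum, cluster 10 at high Lum and low Fmod, and mural libraries are low in Lum.

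Within single perimysial cells the members were not exclusive. All 269 cells of cluster 2 had 100 or more scaled counts of Fmod. Of them, 171 also passed this level for Kera, 232 for Chad and 52 for Lum. Kera and Chad passed together in 150 cells, Kera alone in 21, Chad alone in 82 and neither in 16. Across these cells the levels of Chad and Fmod had a Spearman rho of 0.51 and those of Kera and Chad one of -0.06, pooled over strains and given as a description. Pooling mixes in level differences between strains. Within strains, rho of Chad and Fmod ran from 0.21 (PdgfrbGFP, 74 cells) to 0.63 (the pool, 27 cells). For Kera and Chad it ran from -0.65 (Cspg4dsRED, 16 cells) to 0.02 (C57BL6, 140 cells). Lum and Fmod, opposed between clusters, had a pooled rho of 0.19 in these cells. Within strains their rho ran from -0.18 (the pool) to 0.57 (Cspg4dsRED). Kera passed the level in 64.4% of cluster 2 cells, as a mean over strains, against 0 of 187 mural cells, which allows a share of up to 1.60% (3 cells, counting error only) and whose median depth was lower. For Fmod the mural share was 45.7%, and how much of it was free RNA was not tested.

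Cluster 9 was then set against cluster 2, the other perimysial cluster, in the 4 strains that held both. Of the 10 members, 4 were lower in cluster 9, beside a background of 0.557%, and 0 were higher, beside 0.363%. Kera had 87.7, 336, 99.8 and 78.6 scaled counts in cluster 9 of Acta2GFP, C57BL6, the pool and PdgfrbGFP. Cluster 2 had 598, 841, 811, 687 and 936 in the 5 strains, the third being Cspg4dsRED. The gap was 8.46-fold (log2 fold change -3.08 ± 0.43, adjusted p = 0.0203). Muscle was unevenly spread over these clusters. Where the muscle was labelled, 37 of 39 perimysial cells of gastrocnemius but 15 of 32 of soleus were in cluster 2. The part of muscle in the differences between clusters 9 and 2 was not tested.

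Prelp (log2 fold change -1.44 ± 0.23, adjusted p = 0.0311), Dcn (log2 fold change -1.10 ± 0.17, adjusted p = 0.0273) and Chad (log2 fold change -0.93 ± 0.13, adjusted p = 0.0223) were also lower in cluster 9 in 4 of 4 strains. Fmod had a log2 fold change of -1.06 and missed the threshold (adjusted p = 0.0745). Bgn, Lum and Aspn had positive values that were not called, at 0.41, 0.87 and 1.08. These calls were fragile: the count of 4 became 0 without the pool or without PdgfrbGFP, 1 without Acta2GFP or without C57BL6, 2 without the strain block (Dcn and Chad lost) and 7 with DESeq2. DESeq2 called 7.16% of all genes here, against 0.92% in the main fit. With plates as the unit the count stayed at 4, but Kera was lost (adjusted p = 0.276, edgeR) and Fmod gained a call. Every one of the 4 genes kept its sign in all 10 alternatives.

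Paramysial cells, from the fringe of the perimysium, differed from endomysial cells in 1 member. Aspn, which is known to bind collagen and TGF-beta, had 2219, 1637, 1073 and 582 scaled counts in paramysial cells of Acta2GFP, C57BL6, the pool and PdgfrbGFP. The endomysial values in these 4 strains and Cspg4dsRED (the third) were 439, 298, 116, 209 and 199. The difference was 3.96-fold (log2 fold change 1.99 ± 0.19, adjusted p = 0.00302), beside backgrounds of 0.0757% called higher and 0.0206% lower. Without the strain block it was not called, at a log2 fold change of 1.98 and an adjusted p of 0.0851 from edgeR. Bgn was at 0.87 (adjusted p = 0.387) and was called without Acta2GFP, at 1.01. The 3 cells of C57BL6 and 4 of PdgfrbGFP make these sums thin, and the median log2 fold change was -0.23 against -0.86 over all genes.

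Against perimysial cells, 2 members were higher in paramysial cells, beside a background of 0.381%, and 5 were lower, beside 0.49%. Lum (log2 fold change 2.89 ± 0.42, adjusted p = 0.015) and Aspn (log2 fold change 1.23 ± 0.19, adjusted p = 0.0217) were higher. The 2 perimysial clusters differed in Aspn, at 725 scaled counts in cluster 9 and 330 in cluster 2, against 1378 in cluster 4. The difference between clusters 4 and 9 was 653 ± 731 (SD, n = 4), so it was smaller than its SD. Kera (log2 fold change -8.88 ± 0.59, adjusted p = 0.000782), Chad (log2 fold change -6.86 ± 0.55, adjusted p = 0.00142), Fmod (log2 fold change -4.68 ± 0.70, adjusted p = 0.0177), Prelp (log2 fold change -1.88 ± 0.33, adjusted p = 0.0398) and Ogn (log2 fold change -1.38 ± 0.25, adjusted p = 0.0403) were lower. Fmod in paramysial cells ranged from 47.8 in C57BL6 to 1615 in Acta2GFP, the highest of the 4 strains by far, and Acta2GFP was also highest for Prelp and Chad. With DESeq2, 4 members were called, and likewise without C57BL6 or without the pool. These settings called 8.55%, 0.787% and 0.509% of all genes. Kera, Chad and Lum were called in all 10 alternatives, while without the strain block Aspn and Prelp were not (adjusted p of 0.217 and 0.0533, edgeR). Fmod was called in 9 of the 10 alternatives, Ogn in 6, Aspn in 5 and Prelp in 4.

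Cluster 10 stood out for what it lacked. Aspn was at 1.17, 12.0 and 2.48 scaled counts in Cspg4dsRED, the pool and PdgfrbGFP, where endomysial cells of these strains had 116, 209 and 199 (log2 fold change -5.77 ± 0.61, adjusted p = 0.0258). This was the 1 member called, lower, beside backgrounds of 0.177% lower and 0.265% higher. Without PdgfrbGFP edgeR called 0 members and no gene at all, with 803 genes of all tested at an unadjusted p under 0.05. Lum had its highest mean of the 10 clusters here, at 2172 ± 471 (SD, n = 3), and did not overlap endomysial cells in log2 CPM. Its log2 fold change of 1.41 was not called (adjusted p = 0.107) but was with DESeq2, with plates as the unit and without the low count filter. Cluster 10 expressed Sox9, a cartilage factor, at a mean of 391 scaled counts. Col2a1, a cartilage collagen, was at 21.2, with 8.06% of cells at 100 or more, against at most 0.130 in the endomysial clusters. It was not particular to cluster 10, since perimysial cells were also above endomysial cells (log2 fold change 9.08). Acan and Matn1 had no counts in its 62 cells, and Chad was 15.9 ± 8.89.

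Among the 5 endomysial clusters, 7 of 10 members differed in a joint test, beside 5.46% of all genes. Lum had the smallest adjusted p (2.5e-06, edgeR). It was 1271 ± 257 in cluster 3 and 1096 ± 288 in cluster 8, then 659 ± 94.8 in cluster 6, 553 ± 191 in cluster 5 and 383 ± 88.2 in cluster 1. Steps from cluster 8 to 6, 6 to 5 and 5 to 1 were each larger than the SD of their differences between shared strains, and no step between clusters 3, 4 and 8, which follow each other in the order, was.

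Bgn, which like decorin carries dermatan sulfate, was lowest in cluster 1, with 890.0, 125, 270.2 and 402 scaled counts in Acta2GFP, C57BL6, the pool and PdgfrbGFP. In cluster 8 the same strains had 3434, 1106, 1856 and 2938. Cluster 1 was the lower in every strain, and the highest of its values lay below the lowest of cluster 8 (adjusted p = 0.000404 for the joint test). It overlapped cluster 5, whose lowest strain, C57BL6, was at 874. Cluster 8 was lowest for Aspn, at 112 ± 41.9, and cluster 5 highest, at 632 ± 249 (adjusted p = 0.000178).

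Cluster 5, with 31 cells of 3 strains and only 3 cells in the pool, was also highest of the endomysial clusters for 3 other members. These were Ogn (1496 ± 190.3), Fmod (492 ± 181) and Prelp (1139 ± 287). The joint edgeR tests gave adjusted p-values of 0.00171, 0.000236 and 0.00887. Fmod passed 100 scaled counts in 45.1% of cluster 5 cells, while the mean of the strain medians was 105, so a minority of cells carried the mean. The share was no higher than that of mural cells. Dcn differed too (adjusted p = 0.00233), from 2983 ± 618 in cluster 1 to 3955 ± 793 in cluster 3. Kera (0.997), Chad (0.966) and Omd (0.0959) were not called. The count fell to 4 without C57BL6 or without PdgfrbGFP, beside 2.46% and 1.49% of all genes.

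Mural cells held little of the family. Of 10 members, 9 were lower than in fibroblasts (clusters 1 to 6 and 8 to 10), beside a background of 9.27%, and 0 were higher, beside 6.15%. The median log2 fold change was -3.85 against -0.46 over all genes. Dcn had 322, 176, 51.1, 346 and 273 scaled counts in mural cells of the 5 strains, lowest in Cspg4dsRED, and was 16.7-fold below fibroblasts (log2 fold change -4.06 ± 0.50, adjusted p = 0.00108). Lum was 43.1-fold lower (log2 fold change -5.43 ± 0.48, adjusted p = 0.000275), and Bgn, at 412 ± 145 in mural cells (n = 5), only 4.20-fold (log2 fold change -2.07 ± 0.16, adjusted p = 0.000164).

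Aspn was the exception. It had 506, 314, 312, 590.5 and 548 scaled counts in mural cells and passed 100 in 85.4% of them, and its log2 fold change of 0.83 was not called (adjusted p = 0.167). Dcn passed 100 in 65.3% of mural cells and Lum in 2.14%. The summed fibroblast markers Pdgfra, Col1a1 and Cd34 were at 145 in cluster 7, with Pdgfra at 3.09, and their part in the mural values of the members was not tested. The calls of Omd and Ogn depended on which strains were included: Omd was not called when any 1 of Acta2GFP, C57BL6, the pool or PdgfrbGFP was left out, and Ogn not without the pool.

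Soleus, a slow muscle, and gastrocnemius, a mostly fast one, had been kept apart in 2 strain labels, the pool and PdgfrbGFP. In the pool each muscle was on a plate of its own, so muscle and plate cannot be told apart there. In endomysial cells 0 of 10 members were called in either direction, beside backgrounds of 0.0% and 0.0% (edgeR), and 4 had an unadjusted p under 0.05. Over all genes edgeR gave 807 at an unadjusted p under 0.05, and DESeq2 called 111. Fmod was lower in soleus in both, at 25.6 against 68.0 scaled counts in the pool and 99.5 against 232 in PdgfrbGFP, and DESeq2 called it alone of the members. Aspn was higher in soleus in both (log2 fold change 0.91). A test of whether the muscle difference itself differed between perimysial and endomysial cells called 0 members in edgeR (beside backgrounds of 0.0% and 0.0%, 4 with an unadjusted p under 0.05, and 0 with DESeq2). Over all genes this test gave 1018 of 15386 at an unadjusted p under 0.05 in edgeR, and DESeq2 called 2.37%.

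In perimysial cells Kera had 807 scaled counts in gastrocnemius and 206 in soleus of the pool. In PdgfrbGFP it had 1179 and 55.5. These values were singled out after they had been seen and were not tested. The makeup of the class differed between muscles, since 37 of 39 perimysial gastrocnemius cells but 15 of 32 soleus cells belonged to cluster 2. Within cluster 2 alone Kera was 849.6 against 299.7 in the pool and 1237 against 1.25 in PdgfrbGFP, from 7 to 19 cells each. Fmod in these cells was 5604 against 5744 and 12505 against 12524.

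Among the 8 other genes of the family, Podn (podocan, class V) was lower in perimysial than in endomysial cells (log2 fold change -3.33 ± 0.28, adjusted p = 0.000657) and, as Lum was, lower in mural cells (log2 fold change -5.52 ± 0.51, adjusted p = 0.000321), and it differed among the endomysial clusters (adjusted p = 7.7e-06). Ecm2, which lies beside Aspn on chromosome 13, was higher in perimysial cells (log2 fold change 1.05 ± 0.15, adjusted p = 0.00738). Tsku was called in the mural comparison, lower, at -5.51. Chadl was called in no comparison, and Epyc, Optc, Nyx and Podnl1 had mean levels of at most 7.56 scaled counts in any cluster.

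Genes for the sugar chains were read against the 5.57% of all genes called, in either direction, between perimysial and endomysial cells. Those for chondroitin and dermatan sulfate synthesis gave 1 of 22 higher and 0 lower, the 1 being Chpf, a chain polymerizing factor (log2 fold change 0.87). The keratan sulfate genes gave 1 of 6 higher and 1 lower. Chst5, a sulfotransferase, was higher (8.02), as Kera and Fmod were, and B4galt1 lower (-1.45). For tyrosine sulfation and propeptide processing the count was 0 of 7 higher and 1 lower, the 1 being Bmp1 (-1.32).

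In the same comparison the fibrillar and fibril-associated collagens gave 8 of 16 higher and 4 lower, led by Col2a1 (9.08), Col11a2 (9.04) and Col11a1 (8.02), with Col11a1 among the markers of the class. Other proteoglycans gave 5 of 16 higher and 4 lower, among them Spock3 (7.65), Gpc3 (-4.65) and Vcan (-3.90). In mural cells the collagens gave 0 of 15 higher and 11 lower. Cluster 9 had lower Chst5 (-7.50) and Pcolce2 (-5.86) than cluster 2 and higher Col22a1 (5.98).

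Genes most like each member over the 40 libraries of cluster and strain, by Pearson's r of log2 CPM, are given as a description. Mural libraries are among the 40 and can carry such values. Without them r of Dcn and Prelp fell from 0.84 to 0.46, and r of Dcn and Lum from 0.76 to 0.11. For Kera and Chad it stayed at 0.92. Fmod was most like Chad (0.89), Tnmd (0.88), Col13a1 (0.84). Kera was most like Chad (0.92), Atp6v0a4 (0.86), Cybrd1 (0.84), and Chad most like Kera (0.92), Fmod (0.89), Phyhip (0.89). For Lum the list was Podn (0.96), Smoc2 (0.92), Abca8a (0.91).

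Dcn was most like Igfbp6 (0.96), Serpinf1 (0.96), Mmp2 (0.93), and Prelp Serpinf1 (0.90), Abi3bp (0.87), Col1a1 (0.86). Bgn was most like Clec11a (0.85), Mgp (0.83), Pdgfrl (0.79). Ogn was most like Fzd1 (0.85), Cd109 (0.82), Zfhx4 (0.82) and its genomic neighbour Omd most like Cd109 (0.84), Fzd1 (0.79), Ogn (0.78). Aspn, the third gene of that row, had the weakest likeness, with Foxp1 (0.75), Sept7 (0.74), Dpysl3 (0.72).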

How the data were processed

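The authors deposited a table of raw read counts per gene and cell. In their methods, single cells were sorted into plates, sequenced after Smart-seq2, demultiplexed with bcl2fastq, mapped to GRCm38 with TopHat2 and Bowtie, and counted with featureCounts. Doublets were handled by the authors, through gating and limits on genes per cell, without a doublet caller in this work. The annotation release is not given in the sources used here. One protocol field names heart where the tissue label says skeletal muscle, and the tissue label was followed. Of the columns, 1753 matched a labelled cell and 1 did not and was not used.

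Spike-ins (1.31% of counts) were left out. Levels are means over cells of counts per 500000, by strain, in groups of 3 or more cells. Gene names, positions and exon lengths came from GENCODE M21 (GRCm38), to which 46005 of 46517 genes matched. For tests, counts were summed per group and strain and fitted with edgeR 4.0.16 in R 4.3.3 (TMM, filterByExpr, quasi-likelihood test, strain as a block, Benjamini-Hochberg over all genes, call under 0.05). DESeq2 1.42.0 was an alternative. The fitting was tested on simulated data. The strain label stands in for the animal, an assumption, since no label says if the pool drew on the same mice as PdgfrbGFP. With the strain as a block, p-values rest on how the difference between groups varied from strain to strain. In every strain the perimysial and endomysial sums deviated together (correlations of 0.14 to 0.30). Reads without molecular identifiers are not independent molecules.

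Members and gene lists were chosen with earlier results of these data known. Named genes were the members, the other family genes, up to 3 called genes of largest change per list and comparison, and the 3 genes most like each member (mean of 10 CPM or more).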

Additional observations from a re-analysis of the deposited data

Results flagged for a closer look

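Of 40 groups of 4 or 5 strains (a member in the mural, endomysial, perimysial or paramysial sums), 5 held a strain whose gap to its nearest neighbour was large for the range of the group by Dixon's test. Chance alone flags about 5% of such groups, and the values are log2 CPM. Dcn in mural cells was lowest in Cspg4dsRED, at 6.78 from 74 cells, with the next strain at 8.44. Omd in endomysial cells was lowest in Cspg4dsRED, at 0.61 from 51 cells, with the next at 5.14, and Ogn in perimysial cells was lowest in the same strain, at 10.00 from 18 cells, with the next at 11.19. Omd was also lowest in perimysial cells of Acta2GFP, at 5.97 from 35 cells against 7.30, and in paramysial cells of C57BL6, at -0.66 from 3 cells against 5.52. Cspg4dsRED had the lowest median depth of the 5 strains, and the part of depth in these values was not tested. The test of unequal muscle differences between perimysial and endomysial cells called 0 members.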

How the results depend on the processing

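Mural cells against fibroblasts (9 members called) and perimysial against endomysial cells (6 called) kept counts within 1.5 times of these under all 11 alternatives each, and no called member changed sign in any comparison. With DESeq2 the count was 4 in place of 7 for paramysial against perimysial cells, 2 in place of 1 for cluster 10 against endomysial cells, 7 in place of 4 for cluster 9 against cluster 2 and 1 in place of 0 for soleus against gastrocnemius. Over all genes DESeq2 called 8.55%, 7.97%, 7.16% and 0.679% in these comparisons, in that order. The main fit called 0.871%, 0.442%, 0.92% and 0.0%. Without the filter on low counts the count of members was 3 for cluster 10 and 7 for cluster 9, beside 0.97% and 1.44% of all genes. With RLE size factors it was 1 for cluster 9, beside 0.844%. Cluster 10 gave 0 with cells weighted alike and 2 with plates as the unit, beside 0.23% and 0.918%. Without the replicate block the count was 0 for paramysial against endomysial cells and 2 for cluster 9, beside 0.055% and 1.12%. It stayed within 1.5 times for the others. The causes were not tested.

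With each strain left out in turn, the counts ranged from 1 to 2 for paramysial against endomysial cells (2 without Acta2GFP), from 4 to 7 for paramysial against perimysial cells, from 0 to 4 for cluster 10 (0 without PdgfrbGFP, 4 without Cspg4dsRED, 3 without the pool), from 0 to 1 for cluster 9 against cluster 2 and from 4 to 7 among endomysial clusters. The shares of all genes called ran, in the same order, from 0.075% to 0.392%, 0.509% to 0.868%, 0.0% to 1.25%, 0.292% to 0.407% and 1.49% to 4.53%. Leaving out a strain was not run for the muscle comparisons, which have 2 strains. Of 730 single member results under an alternative, 45 lost and 21 gained a call. Of 700 shares in the family sum 48 moved by more than the SD between strains, and of 800 levels and shares of cells 108 did. Thin sums limit the paramysial and cluster 10 comparisons most, with 3 cells in the smallest paramysial library and 8 in the smallest of cluster 10. The joint endomysial test also held a library of 3 cells, cluster 5 of the pool.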
